A study of Mus musculus with 106 samples.

Results

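Inhibitory neurons of the cerebellum were compared with those of the cerebrum in control mice, using RiboTag immunoprecipitates (IPs) of the Gad2 Cre line. The comparison used every control Gad2 IP library, 6 from the cerebellum and 6 from the cerebrum of the same 6 mice, with the tissues of each mouse paired. These are 12 of the 106 libraries and 6 of the 45 mice of the series. The mice were Hdh Q7/Q7 littermates of HD mice on the 129S4 background, carried a single copy of Gad2-IRES-Cre and of the HA-tagged *Rpl22* allele, and were about 9 months old. Cerebrum and cerebellum were taken from the same hemisphere after removal of the olfactory bulb, and the IP collected mRNA on the tagged ribosomes of Cre-expressing cells. Beside this comparison stand 6 total RNA libraries from 5 of the 6 mice, 11 vGluT2 IPs from 6 other control mice, and 12 Gad2 IPs from 6 HD mice.

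Gad2 encodes an enzyme that makes GABA, and its Cre line marks nearly all GABAergic neurons. In the cerebellum these are Purkinje cells, stellate and basket cells of the molecular layer, Golgi cells, and small neurons of the deep nuclei. The cerebral sample mixes many regions, with projection neurons of striatum, interneurons of cortex and hippocampus, and inhibitory neurons of pallidum, thalamus, hypothalamus and midbrain. The paper defines the cerebrum as the brain without cerebellum and olfactory bulb, so brain stem behind the midbrain falls within it as well. Each value below is therefore an average over a mixed population, and in bulk RNA fewer cells of a type and less RNA per cell cannot be told apart.

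Cerebellar libraries held 28961145, 35626924 and 40661342 counts on mouse genes (lowest, median, highest), and cerebral libraries 25849582, 34373004 and 42528323. Gene levels below are CPM, counts scaled to library size with TMM normalization, also given as lowest, median and highest of the 6 libraries of a tissue. Tests are edgeR's quasi-likelihood test with the mouse as block and Benjamini-Hochberg adjustment over all genes tested, and positive log2 fold changes are higher in the cerebellum. *Gad2* itself held 187, 273 and 316 CPM in the cerebellum and 256, 468 and 505 CPM in the cerebrum (log2 fold change −0.69, edgeR adjusted p = 0.00968), so the gene that drives Cre was read at a lower level in the cerebellum with overlapping ranges. *Gad1*, for the other GABA-making enzyme, held 1438, 1912 and 2428 CPM against 1263, 1645 and 1757 CPM and was not called (log2 fold change 0.28, edgeR adjusted p = 0.107), but was called without mouse 2 (0.38, edgeR adjusted p = 0.0251). *Rpl22*, whose tagged allele makes the IP work, held 80.1, 88.6 and 105 CPM against 49.2, 64.4 and 75.4 CPM (log2 fold change 0.51, edgeR adjusted p = 0.00403). The Y-linked gene *Ddx3y* was at 0 in both tissues of mice 4 and 6 and between 36.1 and 62.4 CPM in every library of the other mice, and the X-inactivation transcript Xist had 44 and 102 counts in the cerebellum and 12 and 5 in the cerebrum of mice 4 and 6. Both tissues of each mouse therefore carried the same sex. The Purkinje cell gene *Pcp2* and the striatal gene *Drd1* put every library on the side of its tissue label.

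Some libraries stood apart. A ribosomal RNA gene took 21.7% of the cerebellar and 9.9% of the cerebral counts of mouse 5, against 0.966% to 2.63% elsewhere. In the cerebrum, library 4 held *Pcp2* at 75.1 CPM and *Car8* at 105 CPM and library 3 held them at 12.3 and 41.1 CPM, while the other 4 cerebral libraries had *Pcp2* between 0.0848 and 1.09 CPM and *Car8* between 5.44 and 13.6 CPM. The hindbrain gene *Hoxb5* stood at 14.5, 16.0, 9.39 and 19.8 CPM in cerebral libraries 1, 2, 4 and 6 but at 0.101 CPM in library 3 and 0 in library 5. The glycine transporter *Slc6a5*, of brain stem and Golgi cells, followed the same split, at 77.0, 103, 47.4 and 83.8 CPM against 25.4 and 25.3 CPM. *Ttr* held 298, 506 and 379 CPM in cerebellar libraries 2, 3 and 5. It held 5.01, 75.5 and 2.64 CPM in cerebellar libraries 1, 4 and 6. In the cerebrum *Ttr* held 120 CPM in library 1 and between 16.3 and 28.1 CPM in the others. The source of these *Ttr* counts was not tested. The activity gene *Fos* was high in both tissues of mice 3 and 4 (59.6 and 31.6 CPM in the cerebellum, 48.1 and 39.9 CPM in the cerebrum). These mice stayed in all counts below, and for some lists and genes values without them are given as well. Leaving out mice 1, 2, 4 and 6 keeps only mice 3 and 5. Calls there rest on those 2 mice and are not a check of equal weight.

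Over 14368 protein-coding genes, 7478 (52.0%) were called different between the tissues at an adjusted p of 0.05. Of these, 3399 (23.7%) were higher in cerebellar and 4079 (28.4%) higher in cerebral Gad2 IPs. The median log2 fold change over all genes tested was −0.04. These shares and this median are the background for every list below. A list count near its share is not a result about the list. With a 4-fold change asked for as well, 690 genes (4.8%) were higher and 1178 (8.2%) lower in the cerebellum. In 2054 genes (14.3%) every cerebellar library lay above every cerebral library, and in 2587 (18%) every cerebellar library lay below. Absence was uneven as well, with 51 tested genes at 0 in all 6 cerebellar libraries and 4 at 0 in all 6 cerebral libraries. The filter on mean counts took both tissues together, so such genes were tested through the other tissue alone. Their direction was thus fixed by the filter, here and in the lists below. With all 6 mice, more genes were thus higher in the cerebrum than in the cerebellum, above all among the larger differences. Without mice 1, 2, 4 and 6 there were 2791 higher and 2700 lower in the cerebellum, but that fit held mice 3 and 5 alone.

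**Figure D1:**
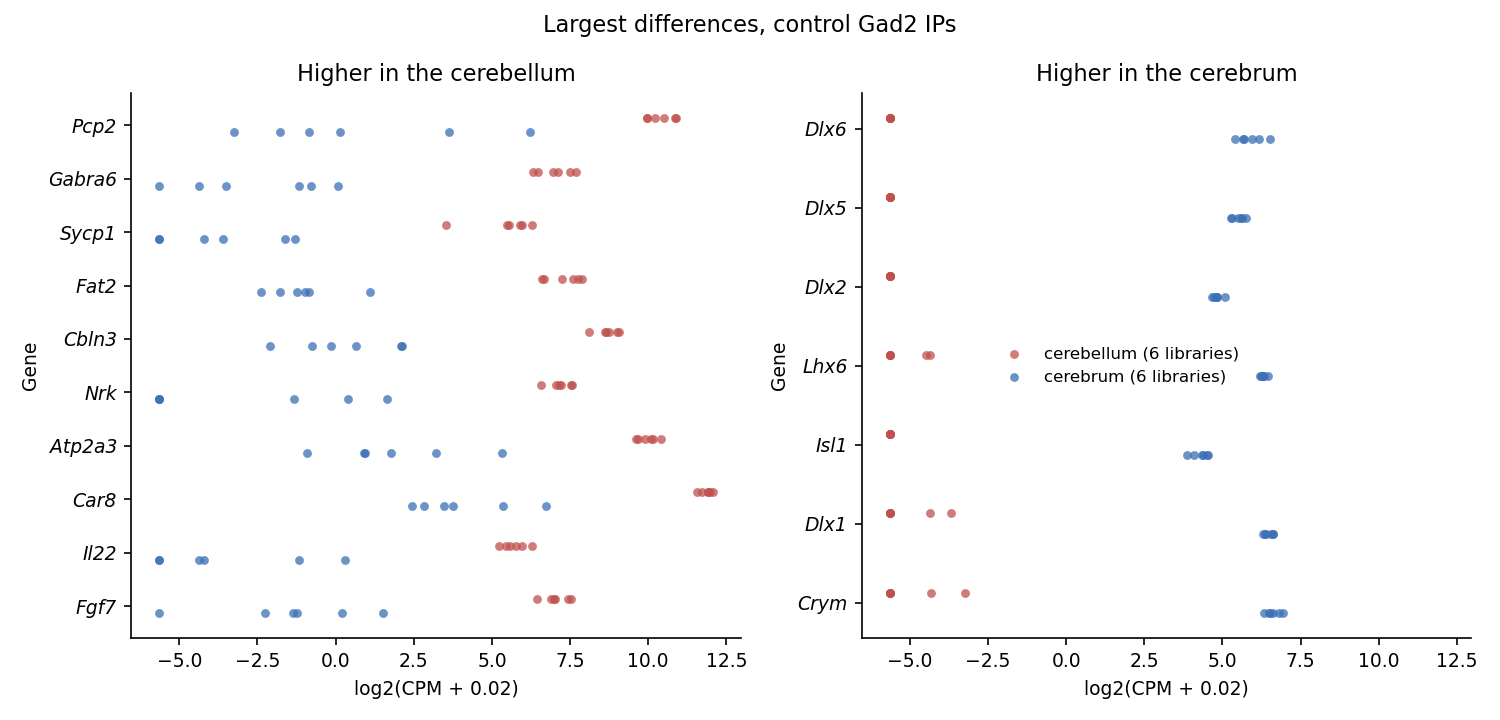
Levels of genes among the 10 with the largest changes in each direction, as log2 of CPM plus a small offset, in the 6 cerebellar and 6 cerebral Gad2 IPs of control mice. Each dot is a library, and the cerebral libraries of mice 3 and 4 stand out for Pcp2, Car8 and Atp2a3.

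The largest differences toward the cerebellum, among genes of at least 10 CPM whose libraries did not overlap, were *Pcp2*, *Gabra6*, *Sycp1*, *Fat2*, *Cbln3*, *Nrk*, *Atp2a3*, *Car8*, *Il22* and *Fgf7*. They include genes of Purkinje cells and genes of granule cells, which are glutamatergic. *Car8* (ENSMUSG00000041261, chr4:8143362-8239041), an inhibitor of the Purkinje cell calcium release channel, held 2994, 3843 and 4289 CPM in the cerebellum and 5.44, 12.3 and 105 CPM in the cerebrum (log2 fold change 7.82, edgeR adjusted p = 9.6e-06). *Fat2*, a giant cadherin of granule cells, held 96.6, 174 and 235 CPM against 0.170, 0.447 and 2.12 CPM (log2 fold change 8.09, edgeR adjusted p = 1.5e-07), and *Cbln3*, a synaptic organizer of the same cells, 275, 416 and 534 CPM against 0.212, 1.23 and 4.36 CPM (log2 fold change 8.02, edgeR adjusted p = 4.1e-06). In each of these genes the lowest cerebellar library lay far above the highest cerebral library. *Pcp2* (ENSMUSG00000004630, chr8:3623371-3625545), a Purkinje cell regulator of G proteins, held 994, 1319.7 and 1889 CPM against 0.0848, 0.811 and 75.1 CPM (log2 fold change 9.22, edgeR adjusted p = 2.7e-04). Its fold change rests on how much *Pcp2* the cerebral libraries of mice 3 and 4 carried, and was 8.59, 8.33, 10.24 and 10.33 without mouse 1, 2, 3 or 4 and 11.58 without mice 3 and 4. The calcium pump *Atp2a3* (log2 fold change 7.94), the kinase gene *Nrk* (7.97), the growth factor *Fgf7* (7.60) and the meiotic gene *Sycp1* (8.16) also moved without mouse 4, to 8.54, 9.09, 8.46 and 9.26. *Gabra6*, a granule cell GABA receptor subunit, was at 8.49, and at 9.17 without mouse 1. Counts of the cytokine gene *Il22* may be split with its near-identical neighbor Iltifb, which was not tested. The value of *Il22* (7.68, and 9.05 without mouse 4) is therefore uncertain.

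Among the 10 largest differences toward the cerebrum were *Dlx6*, *Dlx5*, *Dlx2*, *Lhx6*, *Isl1*, *Dlx1* and *Crym*. All of these but *Crym* encode transcription factors that pattern the forebrain or its GABAergic neurons. *Dlx6* (ENSMUSG00000029754, chr6:6863334-6868568), which acts in the growth of inhibitory neurons, was at 0 in all cerebellar libraries and at 42.3, 56.5 and 91.2 CPM in the cerebrum, at least 3919-fold lower in the cerebellum against a floor of 3 counts over the group (edgeR adjusted p = 5.1e-06). On the same floor, *Dlx5*, *Dlx2* and *Isl1* were at 0 in the cerebellum and at least 3049-fold, 1885-fold and 1281-fold lower. These genes of forebrain identity were thus without counts in cerebellar Gad2 IPs at this depth. *Lhx6*, of interneurons born in the medial ganglionic eminence, had 2 counts over the cerebellar group and 74.1, 78.1 and 87.6 CPM in the cerebrum, a cerebral to cerebellar ratio of 7825 with a counting interval of 2166 to 64619. *Dlx1* had 3 cerebellar counts and a ratio of 5857 (2004 to 28404), and its fitted log2 fold change went from −12.19 to −13.14 without mouse 6. The thyroid hormone binding protein gene *Crym* (log2 fold change −12.01) moved to −13.23 without mouse 6.

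Purkinje cells are the output neurons of the cerebellar cortex. They fire without pause, spread a flat dendritic tree through the molecular layer, and are large cells rich in ribosomes. Of 24 Purkinje cell genes, 23 were higher in the cerebellum and 1 lower, with a median log2 fold change of 3.97, against 23.7% higher and 28.4% lower and a median of −0.04 over all genes tested. Summed over the list, cerebellar libraries held 33614, 39966 and 44918 CPM and cerebral libraries 2929, 3159 and 4432 CPM, and *Itpr1* was the most abundant member in the cerebellum. *Itpr1*, the channel that releases calcium from the endoplasmic reticulum, held 4915, 9383 and 11579.5 CPM in the cerebellum and 336, 576 and 796 CPM in the cerebrum (log2 fold change 4.05, edgeR adjusted p = 1.3e-06). *Calb1*, the calcium buffer calbindin, held 2342, 3338 and 4942 CPM against 233, 307 and 334 CPM (log2 fold change 3.48, edgeR adjusted p = 3.0e-07). *Ppp1r17*, an inhibitor of protein phosphatases that Purkinje cells make in quantity, held 711, 811 and 1185 CPM against 1.71, 3.61 and 32.4 CPM (log2 fold change 7.33, edgeR adjusted p = 1.1e-05), and *Homer3*, a scaffold of the postsynaptic density, 944, 1217 and 1795 CPM against 3.26, 8.09 and 70.5 CPM (log2 fold change 6.98, edgeR adjusted p = 4.1e-06). *Skor2*, a nuclear corepressor needed for Purkinje cell maturation, held 27.0, 35.5 and 61.5 CPM against 0, 0.388 and 1.95 CPM (log2 fold change 6.33, edgeR adjusted p = 1.1e-06). In the cerebrum *Ppp1r17*, *Homer3* and *Skor2* were highest in library 4, as *Pcp2* and *Car8* were. The glutamate transporter gene *Slc1a6* (5.48), *Gng13* (5.01) and *Rora* (3.34) followed, and at the low end stood *Itpka* (1.36) and *Pcp4* (1.33), which striatal and cortical neurons also express. The exception was *Foxp2*, a transcription factor of Purkinje cells and of striatal neurons, at 16.1, 26.6 and 32.6 CPM against 23.5, 61.3 and 82.7 CPM (log2 fold change −1.02, edgeR adjusted p = 0.00166), with overlapping libraries.

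*Rora* encodes a nuclear receptor that Purkinje cells need to mature, and such receptors bind the DNA sequence AGGTCA. Promoter windows of the Purkinje cell genes, from 250 bases before to 50 after annotated RefSeq starts on GRCm38.p6, were searched for it on both strands. Of the 13 genes with a window, 5 had a match (*Rgs8*, *Pcp2*, *Homer3*, *Pcp4* and *Arhgef33*), where 18.1% of all 27025 genes had one. The matches lay in 7 of 22 windows (31.8%), against 16.3% of the 32851 windows of the genome, but 3 of the 7 were of *Pcp2* and 2 of these overlapped and held the same site. The windows of *Pcp2* (chr8:3625498-3625797, minus strand), *Homer3* (chr8:70282749-70283048, plus strand) and *Rgs8* (chr1:153665423-153665722, plus strand) are shown with the match in capitals. Binding was not measured, and nothing is drawn from the matches.

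Pcp2: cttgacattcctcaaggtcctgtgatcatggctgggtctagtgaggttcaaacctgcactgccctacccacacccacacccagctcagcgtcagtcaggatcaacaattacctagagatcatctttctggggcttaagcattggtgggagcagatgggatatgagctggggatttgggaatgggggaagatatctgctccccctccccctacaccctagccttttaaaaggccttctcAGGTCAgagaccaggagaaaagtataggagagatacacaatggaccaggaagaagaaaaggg

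Homer3: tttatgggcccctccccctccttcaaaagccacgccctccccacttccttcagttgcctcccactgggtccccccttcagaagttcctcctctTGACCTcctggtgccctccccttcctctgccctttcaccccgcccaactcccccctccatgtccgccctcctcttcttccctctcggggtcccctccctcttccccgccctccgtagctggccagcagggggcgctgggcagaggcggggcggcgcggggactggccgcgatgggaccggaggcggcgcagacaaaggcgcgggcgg

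Rgs8: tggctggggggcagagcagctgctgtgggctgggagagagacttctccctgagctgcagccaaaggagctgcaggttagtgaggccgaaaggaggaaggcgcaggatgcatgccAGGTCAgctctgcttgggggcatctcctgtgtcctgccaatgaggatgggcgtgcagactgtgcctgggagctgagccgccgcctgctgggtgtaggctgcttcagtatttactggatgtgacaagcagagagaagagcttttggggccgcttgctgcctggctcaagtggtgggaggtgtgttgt

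Molecular layer interneurons, the basket and stellate cells, inhibit Purkinje cells and outnumber them. Golgi cells sit in the granular layer, inhibit granule cells, and many release glycine with GABA. Among 12 molecular layer interneuron genes, 11 were higher and 1 lower in the cerebellum (median 1.77), against 23.7% and 28.4% of all genes. *Tfap2b*, a transcription factor of the cerebellar inhibitory lineage, held 186, 203 and 210.4 CPM in the cerebellum and 4.3, 4.89 and 10.1 CPM in the cerebrum (log2 fold change 5.17, edgeR adjusted p = 4.6e-08). *Kit*, a receptor tyrosine kinase that marks these interneurons, held 614, 823 and 892 CPM against 83.5, 101 and 143 CPM (log2 fold change 2.93, edgeR adjusted p = 1.2e-07). No cerebral library reached a cerebellar one in either gene, although *Kit* was well above 0 in the cerebrum. Parvalbumin, *Pvalb*, which Purkinje cells share with molecular layer interneurons and with fast-spiking cells of the forebrain, held 2913, 3284 and 5155 CPM against 317, 424 and 654 CPM (log2 fold change 3.01, edgeR adjusted p = 1.8e-06). The paired box gene *Pax2* (3.09) marks the precursors of both interneuron classes, and the kainate receptor gene *Grik3* (1.47), *Ptprk* (1.86), *Lypd6* (1.69) and *Sorcs3* (1.30) lay above every cerebral library too. *Nxph1*, a neurexin ligand of interneurons in both tissues, was lower in the cerebellum (−0.91). Of 6 Golgi cell genes, 4 were higher and 1 lower (median 0.66). The metabotropic receptor gene *Grm2*, a Golgi cell marker, held 91.3, 111 and 152 CPM against 13.3, 16.8 and 22.2 CPM (log2 fold change 2.73, edgeR adjusted p = 9.3e-08). *Slc6a5*, which loads glycine neurons, was not called with 66.0, 80.2 and 86.6 CPM against 25.3, 62.2 and 103 CPM (log2 fold change 0.55, edgeR adjusted p = 0.0931), and its cerebral range is the split by library described above. It was called without mouse 2, at 0.72 (edgeR adjusted p = 0.0398).

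Granule cells are the glutamatergic neurons of the cerebellar cortex and by far its most numerous cells, and they are not a target of the Gad2 line. Of 16 granule cell genes, 13 were higher and 1 was lower in cerebellar Gad2 IPs (median 2.63). Their summed level was 1737, 2362, 2914, 2180.4, 3075 and 2398 CPM in the cerebellum of mice 1 to 6 and 756, 697, 635, 626, 628 and 941 CPM in the cerebrum, with *Cbln3* the most abundant member in the cerebellum. *Gabra6*, a defining marker, was at 0 in cerebral library 5, and *Neurod1*, a differentiation factor of granule cells, held 42, 64.6 and 122 CPM in the cerebellum and 1.38, 1.72 and 2.63 CPM in the cerebrum (log2 fold change 5.23, edgeR adjusted p = 2.3e-07). All 16 stood lower in cerebellar IPs than in total RNA of the cerebellum, with a median log2 ratio of −1.86. *Gabrd*, a GABA receptor subunit that granule cells share with forebrain interneurons and projection neurons, was the gene lower in the cerebellum (−0.62). The part of granule cell RNA in the cerebellar result was not tested. Among 5 genes of unipolar brush cells, a rarer excitatory type, 4 were higher and 1 lower (median 3.01), the lower gene not being called without mouse 1, 4 or 6, and among those higher *Plcb4* is a Purkinje cell gene as well. *Eomes*, the marker of the type, was at 3.86 CPM in the median cerebellar library (4.3, and 4.93 without mouse 1).

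Glial and vascular cells are not targets of the Gad2 line, and their genes were read as whole lists. Of 12 astrocyte genes 7 were higher and 2 lower in the cerebellum (median 1.11), with 3 higher and 2 lower without mice 3 and 4, and 10 higher and 2 lower without mice 1, 2, 4 and 6. Their sum was 558, 1134, 1354, 910.1, 1455 and 851 CPM in cerebellar and 1268, 803, 557, 369, 512 and 1066 CPM in cerebral libraries of mice 1 to 6, *Slc1a3* and *Slc1a2* being the most abundant members. The glutamate transporter of Bergmann glia, *Slc1a3*, held 163, 275 and 444 CPM in the cerebellum and 23.7, 41.9 and 88.8 CPM in the cerebrum (log2 fold change 2.80, edgeR adjusted p = 2.2e-04), and *Gdf10*, a growth factor made by the same cells, 28.7, 68.1 and 90.9 CPM against 2.84, 8.10 and 9.97 CPM (log2 fold change 3.01, edgeR adjusted p = 5.4e-05). *Slc6a11*, a GABA transporter of forebrain astrocytes, went the other way with 10.2, 12.4 and 15.8 CPM against 33.5, 45.0 and 80.5 CPM (log2 fold change −1.99, edgeR adjusted p = 2.1e-05). All 12 stood below total RNA in both tissues, with median log2 ratios of −2.24 and −2.90. Of 10 oligodendrocyte genes 0 were called by edgeR, 1 had an unadjusted p under 0.05 and DESeq2 called 1 (median 0.21), with 2 called higher by edgeR without mouse 1, among them *Cnp* (1.04), which was also called without mouse 6 (0.95). Without mice 1, 2, 4 and 6 together 6 of the 10 were called higher (median 0.90), and in HD mice 3. Of 10 microglia genes 8 were lower and none was higher (median −0.92), with 2 lower without mice 1, 2, 4 and 6, their sum being 102, 173, 128, 79.2, 95.1 and 152 CPM in the cerebellum and 182, 216, 157, 122, 160.3 and 271 CPM in the cerebrum. Among 6 endothelial genes 3 were higher (median 1.03), 1 without mouse 3 and 2 without mice 1, 2, 4 and 6. The part of these cells in the result was not tested.

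Striatal projection neurons make up most of the striatum, receive cortical and dopamine input, and are the cells most affected in HD. They split into a direct pathway, with D1 dopamine receptors and the peptides substance P and dynorphin, and an indirect pathway, with D2 and adenosine receptors and enkephalin. All 15 striatal projection neuron genes were lower in the cerebellum (median −3.87), as were all 6 direct pathway genes (median −8.91, and −8.85 with genes at the floor set to their bound) and all 5 tested indirect pathway genes (median −7.72, and −8.73 without mouse 5). Over all genes the share lower was 28.4%. *Ppp1r1b*, which encodes DARPP-32 and integrates dopamine signals, held 280.2, 425 and 556 CPM in the cerebellum and 1998, 2167 and 2777 CPM in the cerebrum (log2 fold change −2.46, edgeR adjusted p = 7.7e-07), lower in the cerebellum but far from 0. *Arpp21*, another phosphoprotein of these cells, held 10.2, 13.8 and 20.4 CPM against 821, 869 and 930.4 CPM (log2 fold change −5.94, edgeR adjusted p = 1.2e-08), and *Rgs9*, which shortens dopamine signals, 0.537, 0.850 and 1.64 CPM against 155, 265 and 313 CPM (log2 fold change −8.17, edgeR adjusted p = 6.9e-09). *Drd1* held 0, 0.0763 and 0.261 CPM against 130.4, 150.2 and 178 CPM (log2 fold change −10.46, edgeR adjusted p = 1.3e-08), *Drd2* 0.537, 0.987 and 1.28 CPM against 144, 151 and 194 CPM (log2 fold change −7.43, edgeR adjusted p = 1.8e-08) and *Adora2a*, the adenosine receptor of the indirect pathway, 0, 0.261 and 0.600 CPM against 268, 281 and 364 CPM (log2 fold change −10.11, edgeR adjusted p = 1.4e-08). The receptors that define both pathways were thus near 0 in the cerebellum. *Penk*, the enkephalin precursor, stayed high in both tissues with 499.7, 645 and 885 CPM against 1598, 2046 and 2184 CPM (log2 fold change −1.61, edgeR adjusted p = 5.1e-06), and Golgi cells are known to express it. The transcription factors *Bcl11b* (−6.53), *Foxp1* (−3.96) and *Meis2* (−7.42) followed the list. *Gnal*, the G protein of striatal dopamine receptors, was the smallest difference at −0.52 (edgeR adjusted p = 0.0170), and was not called without mouse 3, 4 or 5 (adjusted p = 0.0608, 0.0528 and 0.0689).

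Interneurons of cortex and hippocampus come from the ganglionic eminences under the control of Dlx, Lhx and related factors, and keep many of these genes in the adult. Of 17 such transcription factors, 16 were lower in the cerebellum and none was higher (median −8.96). With the 8 genes at or under the floor set to their bound the median was −8.54. Those 8 passed the filter on mean counts through the cerebral libraries, which favored the direction seen. The fitted median was −9.73 without mouse 6 and −10.57 without mice 1, 2, 4 and 6. *Sox6*, which acts downstream of *Lhx6*, held 1.51, 2.14 and 3.41 CPM in the cerebellum and 15.0, 19.5 and 22.9 CPM in the cerebrum (log2 fold change −3.15, edgeR adjusted p = 4.7e-07). It kept low cerebellar counts, unlike *Dlx2*, *Dlx5* and *Dlx6*. The list's uncalled gene was *Nr2f2*, of caudally derived interneurons, with 17.6, 37.2 and 41.5 CPM against 22.5, 43.8 and 48.0 CPM (log2 fold change −0.24, edgeR adjusted p = 0.0585), which was called without mouse 2 (−0.31, edgeR adjusted p = 0.0111). Subclass genes were mixed, with 4 of 17 higher, near the 23.7% of all genes, and 12 lower. Their median was −6.17, −5.05 without mice 3 and 4 and −5.34 without mice 1, 2, 4 and 6. Those higher in the cerebellum were *Pvalb*, the nitric oxide synthase gene *Nos1* (2.06), the cannabinoid receptor gene *Cnr1* (1.11) and *Cck*, all of which cerebellar cells also express. *Cck*, at 0.34 (edgeR adjusted p = 0.0483), was not called without mouse 1, 3, 4 or 6 (adjusted p = 0.0886, 0.0766, 0.0890 and 0.0692). *Sst*, the somatostatin precursor, held 3.66, 6.66 and 10.8 CPM against 690, 795 and 896 CPM (log2 fold change −6.92, edgeR adjusted p = 4.3e-08), and *Npy* 1.01, 2.02 and 10.6 CPM against 206, 218 and 263 CPM (log2 fold change −6.40, edgeR adjusted p = 1.5e-06). *Vip*, of interneurons that inhibit other interneurons, held 0.0291, 0.0813 and 0.619 CPM against 106, 121 and 139.6 CPM with a log2 fold change of −9.75, and −10.53 without mouse 5. Each of *Sst*, *Npy* and *Vip* was thus lower in every cerebellar library than in any cerebral one.

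Excitatory neurons of the forebrain are, like granule cells, not targets of the Gad2 line. Of 10 forebrain excitatory genes, 7 were lower and 2 higher in the cerebellum (median −3.03), with 3 lower without mice 1, 2, 4 and 6. All 10 stood below total RNA in the cerebrum (median log2 ratio −2.34). Their sum was 235, 286, 259, 256, 317 and 264 CPM in cerebellar and 444, 353, 275, 213, 239 and 553 CPM in cerebral libraries of mice 1 to 6, *Slc17a7* being the most abundant member. *Slc17a7*, the vesicular glutamate transporter of both cortex and granule cells, held 103, 153 and 171 CPM in the cerebellum and 126, 199 and 415 CPM in the cerebrum and was not called (log2 fold change −0.51, edgeR adjusted p = 0.104). *Tbr1*, a factor of deep cortical neurons, held 0, 0.305 and 0.698 CPM against 4.50, 12.0 and 24.6 CPM (log2 fold change −5.53, edgeR adjusted p = 3.4e-06). *Neurod6*, of cortical and hippocampal pyramidal cells, was higher in the cerebellum with 12.4, 14.8 and 22.8 CPM against 2.59, 4.11 and 11 CPM (log2 fold change 1.81, edgeR adjusted p = 9.6e-05), its libraries not overlapping. The part of these cells in the result was not tested.

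Hypothalamus and midbrain were inside the cerebral sample, and 11 of the 12 tested genes of these regions were lower in the cerebellum, none higher (median −6.21, −5.87 with bounds, and −5.43 without mouse 1). *Tal1*, a factor of midbrain and pretectal GABA neurons, held 0.0895, 0.232 and 1.86 CPM in the cerebellum and 9.61, 11.7 and 13.1 CPM in the cerebrum (log2 fold change −5.05, edgeR adjusted p = 3.7e-05), and its partner *Gata2* 0.133, 0.319 and 1.14 CPM against 3.97, 4.34 and 5.41 CPM (log2 fold change −3.67, edgeR adjusted p = 6.6e-05). *Th*, the enzyme of dopamine synthesis, held 21.8 and 20.4 CPM in the median libraries and was not called (−0.02), and Purkinje cells are known to transcribe it as well. Position genes are set in the embryo and divide the neural tube from front to back. Forebrain position genes were lower in 6 of 9 and higher in 2 (median −6.70, and −6.08 without mouse 5). Of hindbrain and cerebellar position genes 9 of 17 were higher and 4 lower (median 3.09). Without mice 1, 2, 4 and 6, 9 were higher and 0 lower. Over all genes 23.7% were higher and 28.4% lower, so the 2 higher and the 4 lower were near those shares. The homeobox gene *En2*, of the midbrain and hindbrain border, held 83.3, 85.6 and 99.6 CPM against 0.848, 2.14 and 3.33 CPM (log2 fold change 5.49, edgeR adjusted p = 9.4e-08). *Lhx1* (4.54), *Lhx5* (3.37), *Skor1* (4.87) and *Lbx1* (3.46) joined it. *Barhl2* (5.45), listed with the forebrain, was higher in the cerebellum, and the midbrain gene *Pax8* (−6.87), listed with the hindbrain, was lower.

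Hox genes mark the spinal cord and the hindbrain behind the cerebellum. Of 39 listed, only 14 passed the filter on mean counts, and 13 of these were lower in the cerebellum (median −7.12, −7.36 with bounds, and −8.15 without mouse 2), and cerebral libraries 1, 2, 4 and 6 held them as described above for *Hoxb5*. In the list, cerebral sums were 56.7, 68.3, 1.03, 31.5, 3.22 and 67.5 CPM and cerebellar sums 0.0596, 2.41, 0.0498, 0.0316, 1.11 and 0.0580 CPM for mice 1 to 6. The tested genes passed the filter through these cerebral libraries, which favored the direction seen, and without the 4 mice no Hox gene passed. Brain stem falls within the cerebral sample as the paper defines it. Whether cerebral libraries 1, 2, 4 and 6 held more of it, or libraries 3 and 5 less, was not tested.

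**Figure D2:**
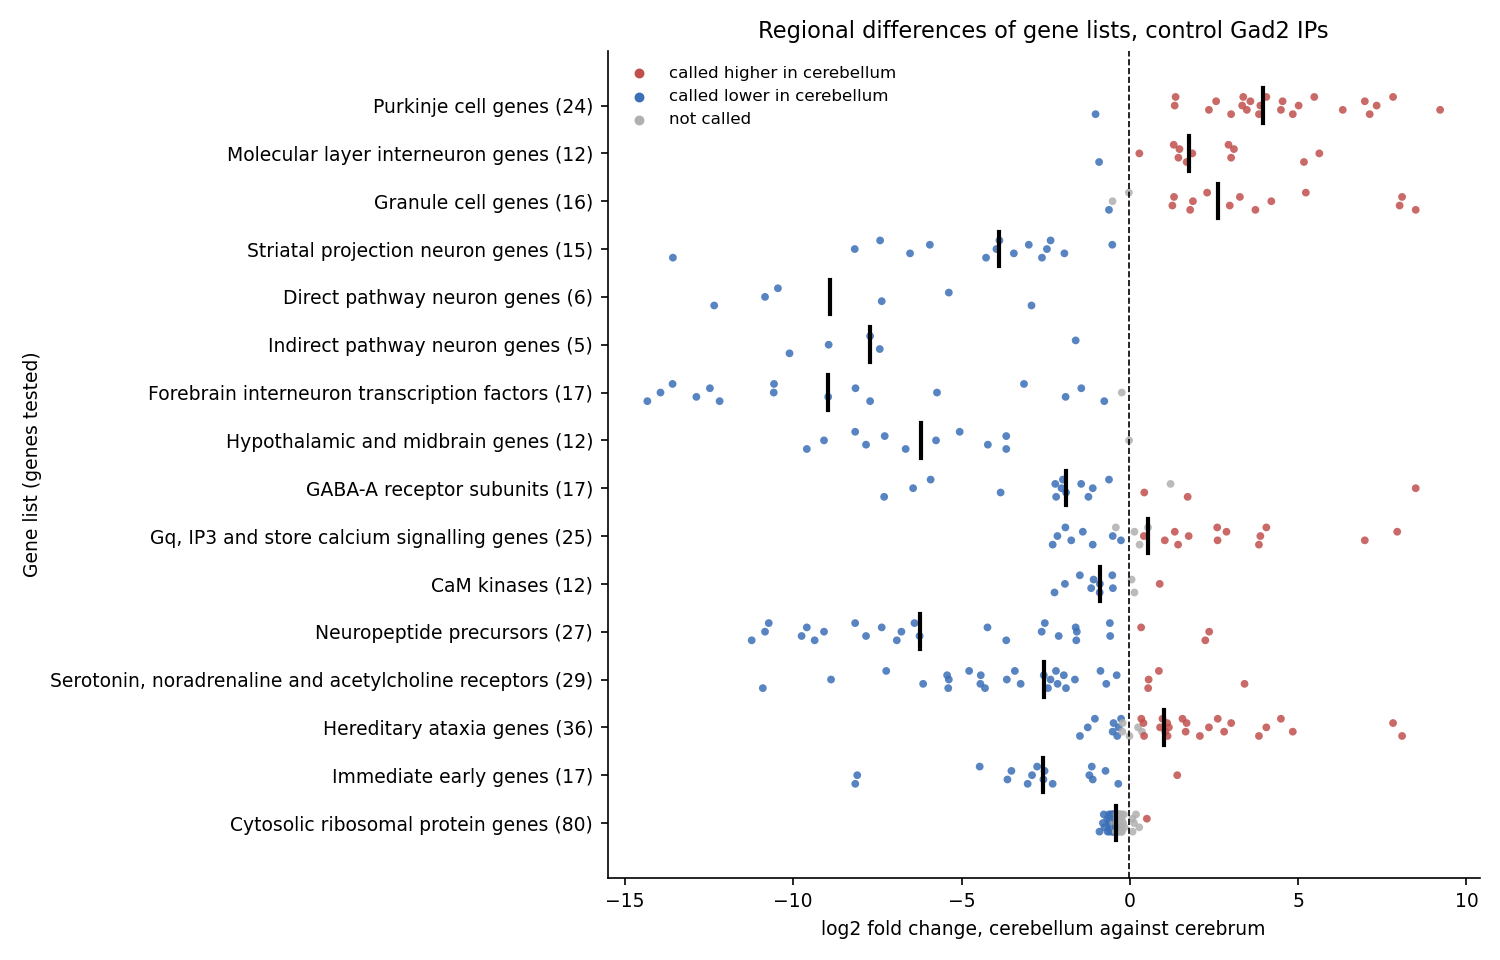
Log2 fold changes of cerebellar against cerebral control Gad2 IPs for the genes of 16 lists, each dot a gene and each bar the list's median. Colored dots were called by edgeR and gray dots were not, and the dashed line is the median of all genes tested.

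GABA is made by *Gad1* and Gad2, loaded into vesicles by the transporter of *Slc32a1*, and cleared by Gat transporters. Of 11 genes of this path, 4 were higher and 3 lower (median 0.24), the share lower being near the 28.4% of all genes. *Slc32a1* held 676, 767 and 947 CPM in the cerebellum and 645, 819 and 986 CPM in the cerebrum and was not called (log2 fold change −0.06, edgeR adjusted p = 0.707). *Nlgn2*, the adhesion protein of inhibitory synapses, was higher (0.53). Genes that make and load GABA thus had overlapping levels in the tissues. GABA-A receptors are pentamers whose alpha subunit sets their kinetics and drug binding. Of 17 tested subunits 3 were higher and 13 lower (median −1.90). *Gabra2*, of striatum and hippocampus, held 20.1, 38.8 and 68.5 CPM against 50.5, 179.6 and 246 CPM (log2 fold change −1.99, edgeR adjusted p = 3.3e-04), and *Gabra4*, of extrasynaptic receptors in the striatum, 15.8, 30.6 and 31.6 CPM against 75.5, 143 and 154 CPM (log2 fold change −2.19, edgeR adjusted p = 1.4e-07). *Gabra5*, of dendritic receptors, was near 0 in the cerebellum with 0, 0.624 and 1.31 CPM against 27.0, 35.0 and 46.2 CPM (log2 fold change −5.92, edgeR adjusted p = 1.2e-06). *Gabra6* was among the subunits higher in the cerebellum, while *Gabra3* (−1.10), *Gabrb1* (−2.03) and *Gabrg3* (−3.84) were lower. Most alpha, beta and gamma subunits were thus higher in the cerebrum. Of 4 tested glycine receptor subunits 1 was higher and 2 were lower (median −1.90), the lower genes being *Glra2* (−3.67) and *Glra3* (−2.63). The count of higher subunits was 0 without mouse 3, without mouse 6 and without mice 3 and 4.

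Purkinje cells receive glutamate from parallel and climbing fibers, and rely on AMPA, delta and metabotropic receptors with few NMDA receptors. Of 16 AMPA receptor and auxiliary genes 5 were higher and 10 lower (median −1.32). *Shisa6*, an auxiliary protein that holds AMPA receptors at synapses, held 433, 473 and 575 CPM in the cerebellum and 18.1, 23.5 and 29.5 CPM in the cerebrum (log2 fold change 4.37, edgeR adjusted p = 9.9e-09). *Gria4* (1.46), *Gria3* (1.24) and the stargazin gene *Cacng2* (1.76) were higher, and *Gria1* lower with 249, 287 and 318 CPM against 427, 538 and 619 CPM (log2 fold change −0.87, edgeR adjusted p = 1.5e-05), while *Gria2*, which makes the receptors impermeable to calcium, was not called (−0.01). Other auxiliary proteins went the other way, *Gsg1l* being lowest (−3.62). Auxiliary proteins of AMPA receptors thus split between the tissues. Of the kainate receptor genes, *Grik1* (1.5), *Grik3* and *Grik4* (1.54) were higher and *Grik2* (−1.85), *Grik5* (−1.33), *Neto1* (−5.09) and *Neto2* (−1.42) lower. Among NMDA receptor genes, the obligatory subunit *Grin1* was not called (−0.14, and lower at −0.28 without mouse 1). *Grin2a* and *Grin2b* were lower (−2.10 and −2.86), and *Grin2c*, a granule cell subunit, higher (2.30). *Cbln1*, a synaptic organizer that granule cells release, was higher at 4.20, and the forebrain member *Cbln4* lower at −5.10. The metabotropic receptor gene *Grm5*, of striatal and cortical neurons, was lower with 4.54, 9.44 and 21.2 CPM against 99.6, 180.2 and 220.3 CPM (log2 fold change −4.10, edgeR adjusted p = 5.8e-07).

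Glutamate also acts on Purkinje cells through Gq, phospholipase C and the inositol trisphosphate receptor, which releases calcium. Of 25 genes of this path 13 were higher and 8 lower, the latter near the 28.4% of all genes. The median was 0.54, and 5 were lower without mice 3 and 4. *Plcb4*, the phospholipase of most Purkinje cells, held 194, 313 and 361 CPM in the cerebellum and 11.3, 47.5 and 56.6 CPM in the cerebrum (log2 fold change 2.87, edgeR adjusted p = 9.1e-05), and *Plcb3*, of the remaining Purkinje cells, 106, 168 and 288 CPM against 8.35, 11.5 and 15.8 CPM (log2 fold change 3.88, edgeR adjusted p = 4.5e-07). The forebrain phospholipase *Plcb1* was lower at −1.10 with overlapping libraries. Phospholipase C genes thus split between the tissues. *Gnaq*, the G protein, held 226, 271 and 291 CPM against 83.5, 139.5 and 154 CPM (log2 fold change 1.04, edgeR adjusted p = 1.1e-04). *Homer1* (−2.29) and *Homer2* (−1.74) were lower, opposite to *Homer3*. Of 10 plasma membrane calcium pumps and exchangers 4 were higher and 5 lower, with *Atp2b2* at 1.29, *Slc24a3* at 1.69 and *Atp2b4* at −3.69. Protein kinase C acts downstream. *Prkcd* was higher (2.86) and *Prkce* (−1.07) and *Prkch* (−6.68) lower. In all 2 of 9 isoforms were higher, near the 23.7% of all genes, and 6 lower. Only 3 were lower without mouse 5 or without mice 3 and 4. CaM kinases, which support plasticity in forebrain neurons, were lower in 9 of 12 and higher in 1 (median −0.89). *Camk2a*, the alpha isoform, held 194, 246 and 297 CPM against 960.1, 1119 and 1496 CPM (log2 fold change −2.24, edgeR adjusted p = 4.0e-07).

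Calcium binding proteins set how far a calcium signal spreads, and different neuron classes use different ones. Of 21 EF-hand genes 6 were higher and 13 lower (median −0.68). *Hpcal1*, a hippocalcin relative, held 695, 902 and 1379 CPM in the cerebellum and 84.7, 94.2 and 134 CPM in the cerebrum (log2 fold change 3.23, edgeR adjusted p = 8.2e-08), while *Hpca* itself held 572, 633 and 904 CPM against 2066, 2316 and 2913 CPM (log2 fold change −1.79, edgeR adjusted p = 5.0e-06). *Necab2*, of striatal and hippocampal cells, held 4.58, 6.53 and 9.28 CPM against 181, 198 and 262 CPM (log2 fold change −5.02, edgeR adjusted p = 7.2e-08). The calmodulin gene *Calm2* (−0.26) was not called, but was called without mouse 2 (−0.40), and *Calm3* was lower (−0.53). *Nrgn*, which stores calmodulin in forebrain dendrites, held 9.48, 14.7 and 19.7 CPM against 873, 1024 and 1147 CPM (log2 fold change −6.14, edgeR adjusted p = 1.2e-08). *Scgn* was at 0 in all cerebellar libraries and at 5.83 CPM in the median cerebral library, at least 376-fold lower in the cerebellum.

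Cerebellar inhibitory neurons fire fast and regularly, which takes particular ion channels. Of 13 Kv1 and Kv3 channel genes 6 were higher and 5 lower (median 0.22), with calls in both directions. *Kcnc2*, a Kv3 channel of forebrain parvalbumin cells, held 2.84, 7.06 and 17.9 CPM in the cerebellum and 138, 181 and 205 CPM in the cerebrum (log2 fold change −4.66, edgeR adjusted p = 1.2e-06). *Kcna2*, of basket cell terminals, was higher (1.44), with *Kcna6* (1.41) and *Kcnc4* (1.17), and *Kcna4* (−2.74) and *Kcna5* (−5.57) were lower. *Kcnip2*, the partner of Kv4 channels in striatal neurons, held 0.746, 0.938 and 1.10 CPM against 241, 272 and 336 CPM (log2 fold change −8.21, edgeR adjusted p = 3.1e-09), while *Kcnd3* (1.66), *Kcnip1* (0.86), *Kcnip3* (1.25) and *Kcnip4* (1.45) were higher. The calcium-activated channel *Kcnma1*, which repolarizes Purkinje cells, held 378, 475 and 506 CPM against 56.5, 91.9 and 118 CPM (log2 fold change 2.38, edgeR adjusted p = 2.6e-06). Among Kv7 channels, which restrain firing, *Kcnq3* and *Kcnq5* were lower, at −1.77 and −4.79. Of 12 sodium channel genes 3 were higher and 8 lower (median −0.88), and 1 higher without mice 3 and 4, where over all genes 23.7% were higher and 28.4% lower. *Scn8a* (0.57) was higher, and *Scn2a* (−1.26), *Scn3b* (−4.47) and the striatal subunit *Scn4b* (−1.94) lower. The pacemaker channel genes *Hcn2*, *Hcn3* and *Hcn4* were not called.

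Calcium enters Purkinje cells mainly through P-type channels, made by *Cacna1a*, and through low-threshold T-type channels. Of 16 calcium channel genes 6 were higher and 8 lower (median −0.50). *Cacna1a* held 273, 370.3 and 482 CPM in the cerebellum and 66.3, 85.8 and 114 CPM in the cerebrum (log2 fold change 2.08, edgeR adjusted p = 2.4e-06), and *Cacna1g*, a T-type channel, 783, 989 and 1388 CPM against 31.5, 43.1 and 75.1 CPM (log2 fold change 4.49, edgeR adjusted p = 1.6e-08). The other T-type channels were on the cerebral side, *Cacna1h* with 1.94, 2.91 and 3.11 CPM against 36.7, 51.9 and 66.3 CPM (log2 fold change −4.24, edgeR adjusted p = 1.3e-08) and *Cacna1i* at −1.49. T-type channel genes thus split between the tissues. The auxiliary subunit *Cacna2d2* was higher (1.55), while *Cacna2d1* (−3.55), *Cacnb1* (−2.80), the L-type gene *Cacna1c* (−1.77) and the R-type gene *Cacna1e* (−1.89) were lower.

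Dopamine and other amines act on striatal neurons through cAMP, which phosphodiesterases break down. Of 22 genes of dopamine and cAMP signaling 5 were higher and 10 lower (median −0.25), and 3 higher without mice 3 and 4, against 23.7% higher and 28.4% lower over all genes, so the share higher was near that of all genes. *Adcy5*, the adenylate cyclase of the striatum, held 90.6, 100 and 132 CPM in the cerebellum and 505, 647 and 782 CPM in the cerebrum (log2 fold change −2.61, edgeR adjusted p = 4.6e-08), and *Adcy1*, of cerebellar and cortical neurons, 432, 872 and 1082 CPM against 189.9, 239.6 and 262 CPM (log2 fold change 1.71, edgeR adjusted p = 1.1e-04). Of 18 phosphodiesterases 4 were higher, again near the share of all genes, and 10 lower (median −0.78). *Pde5a*, which degrades cGMP in Purkinje cells, held 170.1, 208 and 225 CPM against 8.91, 14 and 16.3 CPM (log2 fold change 3.90, edgeR adjusted p = 7.2e-08), with *Pde9a* also higher (2.27). *Pde10a*, the enzyme of striatal neurons, held 28.9, 39.5 and 45.3 CPM against 228, 319 and 408 CPM (log2 fold change −3.00, edgeR adjusted p = 2.8e-07), and *Pde1b* (−3.87), *Pde1a* (−6.14), *Pde7b* (−3.05) and *Pde8b* (−3.90) were lower. *Prkg1*, the cGMP kinase of Purkinje cells, was also higher at 3.11, while the cyclase subunit *Gucy1a1* was lower (−2.36). RGS proteins end G protein signals, and 6 of 17 were higher and 9 lower (median −1.10). *Rgs8* held 2951, 3315 and 3982 CPM against 188, 202 and 378 CPM (log2 fold change 3.88, edgeR adjusted p = 3.2e-08), and *Rgs14* (−8.96), *Rgs4* (−3.96) and *Rgs2* (−2.95) were lower with *Rgs9*.

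Release machinery is common to all neurons, with isoforms that set speed. Of 13 synaptotagmins 5 were higher and 7 lower (median −0.55). *Syt2*, the fast calcium sensor of hindbrain and parvalbumin neurons, held 864, 920.3 and 1052 CPM in the cerebellum and 324, 418 and 471 CPM in the cerebrum (log2 fold change 1.24, edgeR adjusted p = 4.0e-06), and *Syt1*, the sensor of most forebrain synapses, 246, 269 and 320.1 CPM against 899.9, 1543 and 1683 CPM (log2 fold change −2.37, edgeR adjusted p = 5.8e-07). Both sensors were thus present in both tissues in different proportion. *Syt7* (1.54) and *Syt9* (1.60) were higher, and *Syt5* (−6.11) and *Syt6* (−4.16) lower. Of 25 vesicle fusion genes 6 were higher, near the 23.7% of all genes, and 15 lower, where all genes had 28.4% (median −0.49). *Cplx2*, a clamp of fusion, held 262, 551 and 632 CPM against 1904, 2005 and 2141 CPM (log2 fold change −2.09, edgeR adjusted p = 1.1e-05), and *Stx1a*, a membrane fusion protein, was lower (−4.90) while *Doc2b* was higher (1.91). *Snap25* and *Vamp2* are used at every fast synapse. *Snap25* was lower by edgeR (−0.55) with overlapping libraries, and *Vamp2* (−0.18) was called without mouse 2 alone (−0.32). Perineuronal nets and neurofilaments, typical of fast neurons with thick axons, had 6 of 13 genes higher and 3 lower (median 0.45). The share lower was near the 28.4% of all genes. *Hapln4*, a net protein of Purkinje cell synapses, held 483, 655 and 735 CPM against 189.6, 279 and 326 CPM (log2 fold change 1.22, edgeR adjusted p = 1.7e-06), and *Nefh*, of large axons, was higher at 0.78.

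Many forebrain interneurons and projection neurons release peptides beside GABA. Of 27 tested precursors 24 were lower in the cerebellum and 3 higher (median −6.25, −5.99 with bounds, and −4.95 without mouse 1). *Pdyn*, the dynorphin precursor, held 0, 0.0752 and 0.290 CPM in the cerebellum and 175, 219.7 and 248 CPM in the cerebrum (log2 fold change −10.84, edgeR adjusted p = 1.0e-08), and *Tac1*, the substance P precursor, 0.575, 2.28 and 3.13 CPM against 290.1, 339 and 372 CPM (log2 fold change −7.37, edgeR adjusted p = 7.9e-08). *Cort* was at 0 in the cerebellum and at 9.09 CPM in the median cerebral library, at least 602-fold lower. Beyond *Cck*, described above, the peptide genes higher in the cerebellum were *Nxph4* with 52.3, 64.3 and 71.9 CPM against 6.4, 14.3 and 18.7 CPM (log2 fold change 2.36, edgeR adjusted p = 9.2e-06) and *Adcyap1* with 14.5, 22.0 and 27.0 CPM against 2.75, 4.08 and 9.50 CPM (log2 fold change 2.24, edgeR adjusted p = 2.9e-06), which encodes PACAP. Most of these precursors were thus lower in cerebellar IPs. Of 17 opioid, cannabinoid and peptide receptors 12 were lower and 2 higher (median −3.42), and of 29 receptors for serotonin, noradrenaline and acetylcholine 25 were lower and 4 higher (median −2.56), with 16 lower without mice 1, 2, 4 and 6. *Chrm1*, the muscarinic receptor of forebrain neurons, held 0, 0.0880 and 0.232 CPM against 156, 199 and 234 CPM (log2 fold change −10.90, edgeR adjusted p = 1.2e-08), and *Htr2c* 1.17, 5.23 and 8.71 CPM against 58.1, 107 and 131 CPM (log2 fold change −4.44, edgeR adjusted p = 1.0e-06). Most receptors for modulators were thus higher in the cerebrum.

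Many hereditary ataxias damage Purkinje cells, although their genes are often expressed widely. Of 36 ataxia genes 23 were higher in the cerebellum and 8 lower (median 1.01), against 23.7% and 28.4% of all genes, and 5 were lower without mouse 4, with 17 higher and 4 lower without mice 3 and 4. Many of them are Purkinje cell genes named above, among them *Itpr1*, *Car8*, *Cacna1g* and *Cacna1a*. *Ttbk2*, a kinase of cilia, held 126, 176 and 225 CPM in the cerebellum and 53.4, 90.3 and 109 CPM in the cerebrum (log2 fold change 1.05, edgeR adjusted p = 2.0e-04). *Dab1* (1.12), *Kcnd3*, *Atm* (1.69) and *Elovl5* (0.97) were also higher. The genes lower in the cerebellum were smaller changes, led by *Ppp2r2b* with 37.7, 45.8 and 49.1 CPM against 116, 121 and 138 CPM (log2 fold change −1.48, edgeR adjusted p = 4.2e-07) and *Atxn3* (−1.25) and *Atxn1* (−1.04). Of the 9 polyglutamine disease genes 4 were higher and 3 lower (median 0.24), and 2 were higher without mouse 3, 4 or 6. *Htt* itself held 49.7, 98.6 and 119.8 CPM against 48.6, 66.9 and 77.7 CPM (log2 fold change 0.50, edgeR adjusted p = 0.0311), with overlapping libraries, and was not called without mouse 1, 3, 4, 5 or 6 (adjusted p between 0.0683 and 0.0918).

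Immediate early genes follow recent activity. In the cerebellum 16 of 17 were lower and 1 was higher (median −2.57), with 11 lower without mice 1, 2, 4 and 6. *Egr1*, induced by synaptic input, held 11.4, 18.2 and 24.2 CPM in the cerebellum and 139.8, 188 and 322 CPM in the cerebrum (log2 fold change −3.52, edgeR adjusted p = 1.0e-08), and *Egr3*, of the same family, 0, 0.394 and 0.754 CPM against 73.0, 107 and 126 CPM (log2 fold change −8.10, edgeR adjusted p = 4.5e-08). *Junb* was lower as well at −2.53. *Fos* held 2.39, 4.57 and 59.6 CPM against 5.22, 10.8 and 48.1 CPM (log2 fold change −0.72, edgeR adjusted p = 0.0248), its high values being mice 3 and 4 in both tissues, and was not called without mouse 1, 2, 5 or 6 (adjusted p = 0.0778, 0.0546, 0.0553 and 0.0747). *Ier2* alone was higher (1.41). Libraries of the tissues were thus separate for *Egr1* and *Egr3* and overlapped for *Fos*. Clock genes were mixed, with 7 of 18 higher and 6 lower, the latter near the 28.4% of all genes. There were 4 lower without mice 3 and 4 and 3 without mice 1, 2, 4 and 6. The median of the list changed sign between scalings (0.01 with TMM and −0.01 on library sizes alone). *Arntl*, a core activator, held 62.1, 63.8 and 69.5 CPM against 21.6, 22.4 and 29.0 CPM (log2 fold change 1.48, edgeR adjusted p = 1.5e-06), and *Npas2*, a forebrain activator of the same loop, 1.54, 2.04 and 2.87 CPM against 36, 38.4 and 43.5 CPM (log2 fold change −4.24, edgeR adjusted p = 4.5e-08). Of 25 nuclear receptor genes 10 were higher and 14 lower (median −0.54). Beside *Rora*, *Esrrb* (2.56) and *Esrrg* (1.75) were higher, and the retinoid receptor genes *Rarb* (−2.35) and *Rxra* (−2.15) lower. Of 17 trophic factor genes 6 were higher and 9 lower (median −0.60). *Ret*, a receptor for glial-derived factors, held 144, 169.9 and 209 CPM against 22.3, 26.6 and 33.2 CPM (log2 fold change 2.65, edgeR adjusted p = 7.3e-08), and *Igfbp4* 1.91, 2.19 and 2.99 CPM against 81.2, 104 and 125 CPM (log2 fold change −5.45, edgeR adjusted p = 1.4e-08).

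Genes of general cell functions were counted by family, where 23.7% of all genes were higher and 28.4% lower. Of 56 tested clustered protocadherins 16 were higher and 6 lower (median 0.32), and 10 and 3 without mice 3 and 4. Of 80 ribosomal protein genes 39 were lower and 1 was higher (median −0.41), but the count of lower genes was 20, 73, 24, 18, 16 and 20 without mouse 1, 2, 3, 4, 5 or 6, 3 without mice 3 and 4 and 61 without mice 1, 2, 4 and 6, so no member is singled out. Of the 13 mitochondrially encoded genes 0 were called by edgeR, 1 had an unadjusted p under 0.05 and DESeq2 called 0 (median −0.44), and edgeR called 2 lower without mouse 2 and 1 without mice 1, 2, 4 and 6. Of 96 nuclear genes for oxidative phosphorylation 8 were higher and 8 lower (median −0.03), and the lower count was 33 without mouse 2 and 3 to 5 without any other single mouse, with 2 without mice 3 and 4 and 23 without mice 1, 2, 4 and 6. Calls among these general genes thus depended on which mice were used.

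Pairs of related genes were compared by their shares. To compare levels between genes, CPM were divided by exonic length (RPKM), and the share of the partner named last in the summed RPKM of the pair is given as mean ± SD of 6 libraries. The 20 pairs and their order were chosen with earlier results of these data known, so the 14 in which the partner named first was lower and the other higher in the cerebellum, both called, describe the choice and are not a test. On the RPKM scale, *Ppp1r17* made up 77.5 ± 3.02% of the pair with *Ppp1r1b* in the cerebellum and 0.602 ± 0.695% in the cerebrum. In RPKM, *Syt2* made up 78.9 ± 2.49% against 24 ± 6.62% of the pair with *Syt1*. The partner that led thus differed between the tissues in both pairs. Of RPKM with *Plcb1*, *Plcb4* was 79.9 ± 2.58% against 20.2 ± 4.14%, and of RPKM with *Rgs9*, *Rgs8* was 99.96 ± 0.0223% against 38.4 ± 7.17%. *Gria4* was 47.8 ± 4.28% against 15.5 ± 2.33% of RPKM with *Gria1*. Shares within a library do not depend on its size. *Homer3* with *Homer1* was less even, at 99.5 ± 0.171% against 27.7 ± 23.6% of RPKM, *Homer3* being highest in cerebral libraries 3 and 4. Of RPKM with the partner *Camk2a*, *Camk2b* was 68.7 ± 3.14% against 46.5 ± 4.61%, both genes being lower in the cerebellum. The pair of *Pcp4* and *Pcp4l1* ran the other way, *Pcp4l1* being 4.46 ± 0.209% against 40.5 ± 2.23% of RPKM.

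**Figure D3:**
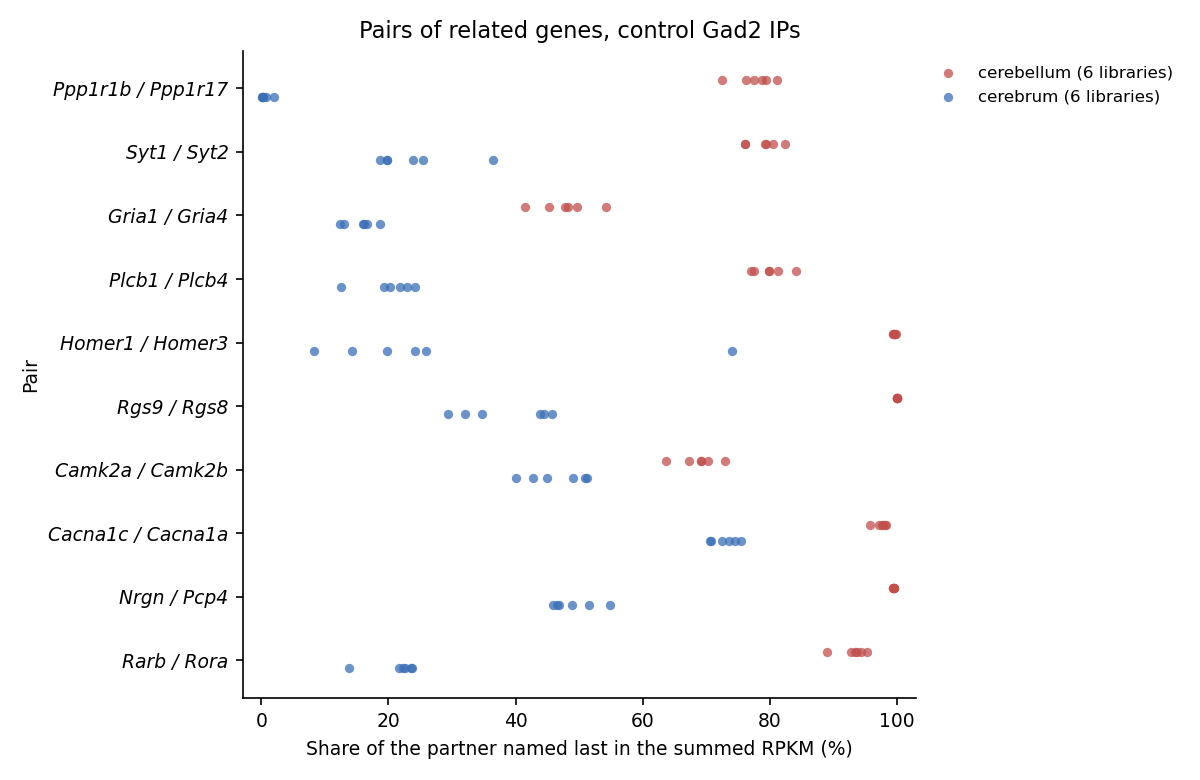
Share of the partner named last in the summed RPKM of 10 pairs of related genes, in percent, for each cerebellar and cerebral control Gad2 IP. In each pair shown the tissues form separate groups, and the pair of Homer1 and Homer3 spreads in the cerebrum.

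Total RNA of the same homogenates shows which regional differences belong to whole tissue. The interaction of tissue and preparation asks whether the regional difference of the IPs departs from that of total RNA, and it shares the IP libraries with the comparison above, so its values are given beside it and not as separate evidence. Of 14630 genes 1228 (8.39%) had a called interaction, 594 (4.06%) with a regional difference more toward the cerebellum in the IPs and 634 (4.33%) more toward the cerebrum. The count rests on few total RNA libraries, and fell to 413 without mouse 6, 610 without mouse 4 and 696 without mouse 3. Toward the cerebrum, the largest interactions included *Dlx5* (interaction −6.73, edgeR adjusted p = 0.00714) and *Lhx6* (interaction −6.05, edgeR adjusted p = 4.9e-04), fitted values that depend on the prior count where cerebellar IPs are at 0. *Dlx5* was not called by edgeR without mouse 3 or 6 (adjusted p = 0.0664 and 0.0802). *Lhx6* averaged 0.222 ± 0.166 CPM in total RNA of the cerebellum and 19.4 ± 0.724 CPM in that of the cerebrum (mean ± SD), so whole tissue showed the same direction with a smaller step. Toward the cerebellum it was largest for *Neurod6* (interaction 5.24, edgeR adjusted p = 1.5e-05), *Dkkl1* (interaction 5.01, edgeR adjusted p = 2.0e-04) and *Adcyap1* (interaction 3.67, edgeR adjusted p = 5.6e-05). *Neurod6* averaged 3.77 ± 0.742 CPM in cerebellar and 53.9 ± 9.52 CPM in cerebral total RNA, the opposite order to the IPs, and *Adcyap1* 7.76 ± 0.542 and 23.9 ± 4.10 CPM. Both are known from excitatory cells of the cortex. Among lists, 5 of 24 Purkinje cell genes had a called interaction toward the cerebellum and none toward the cerebrum, and 8 of 15 striatal projection neuron genes had one toward the cerebrum and none toward the cerebellum. *Camk2a* had an interaction of 1.96 with a regional difference of −2.24 in the IPs, and *Grm2* had 3.17 with 2.73.

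The vGluT2 IPs sampled excitatory neurons of the same tissues in other mice, mainly granule cells in the cerebellum and thalamic, cortical and midbrain neurons in the cerebrum. The interaction of tissue and cell type again shares the Gad2 IPs. Its vGluT2 side had 5 cerebellar and 6 cerebral libraries. With the mouse as block, the mouse without a cerebellar library added nothing to the regional difference. Of 14441 genes 6022 (41.7%) were called, 3084 (21.4%) with a regional difference more toward the cerebellum in Gad2 than in vGluT2 IPs and 2938 (20.3%) less so. Toward the cerebrum, *Isl1* (interaction −8.83, edgeR adjusted p = 4.8e-05), *Lhx6* (interaction −8.36, edgeR adjusted p = 1.5e-06) and *Crabp1* (interaction −7.95, edgeR adjusted p = 0.0325) led. *Crabp1*, a retinoid binding protein, was at 0 in all cerebellar Gad2 IPs and at 10.02 CPM in the median cerebral library, at least 692-fold lower, but its interaction was not called with DESeq2. Toward the cerebellum, *Endou* (interaction 8.53, edgeR adjusted p = 4.1e-07), *Neurod6* (interaction 8.28, edgeR adjusted p = 4.0e-09) and *Dkkl1* (interaction 8.25, edgeR adjusted p = 7.6e-09) led. *Endou* held 2.59, 4.01 and 4.55 CPM against 0, 0.533 and 1.07 CPM in the Gad2 IPs (log2 fold change 2.88, edgeR adjusted p = 0.00254), and averaged 0.199 ± 0.107 and 10.2 ± 1.54 CPM in cerebellar and cerebral vGluT2 IPs. *Dkkl1* was called in the Gad2 IPs at 0.91 (edgeR adjusted p = 0.0390) but not without mouse 1, 2, 3, 4 or 6 (adjusted p = 0.0781, 0.109, 0.106, 0.142 and 0.0559). In this interaction 22 of 24 Purkinje cell genes leaned toward the cerebellum and none toward the cerebrum, while 11 of 16 granule cell genes leaned toward the cerebrum and 1 toward the cerebellum. *Prkcd* (interaction 5.50, edgeR adjusted p = 5.8e-10), *Grm2* (interaction 6.30, edgeR adjusted p = 2.0e-10) and *Kcnma1* (interaction 4.60, edgeR adjusted p = 4.7e-08) also had regional differences more toward the cerebellum in inhibitory than in excitatory neurons.

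The Gad2 IPs of 6 HD mice are independent animals and repeat the contrast. Of 14553 genes 7884 (54.2%) were called there, 3841 (26.4%) higher and 4043 (27.8%) lower in the cerebellum. Of the 3399 genes higher in controls, 2933 were also called higher in HD mice, which is 86.3% of the control list and 76.4% of the HD list, and 3367 of the 3391 tested had the same sign. Of the 4079 lower in controls, 3336 were called lower in HD mice (81.8% and 82.5%), and 3934 of 4049 tested had the same sign. Genes called in opposite directions were *Grm4*, higher in the cerebellum in controls, and *Ccnd1* and *Phex*, lower there in controls, and they were named after their values were seen. *Grm4* itself was at 0.34 in controls (edgeR adjusted p = 0.0434), was not called without mouse 1, 2, 3, 5 or 6 (adjusted p = 0.0728, 0.0892, 0.101, 0.0755 and 0.0515), and was at −0.43 in HD mice. *Ccnd1* was at −0.57 and 0.53, and *Phex* at −1.48 and 1.59, the control value of *Phex* not called by edgeR without mouse 1, 3 or 4 (adjusted p = 0.0762, 0.0593 and 0.0709). For single genes, log2 fold changes in HD mice were 7.92 for *Car8*, 9.38 for *Pcp2*, −2.05 for *Ppp1r1b*, −8.82 for *Drd1* and −8.89 for *Adora2a*. In HD mice 23 of 24 Purkinje cell genes were higher and none lower (median 3.92), and 14 of 15 striatal projection neuron genes lower and none higher (median −3.43). The regional difference between Gad2 neurons was thus largely the same set of genes in both genotypes, and a difference between genotypes was not tested here.

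**Figure D4:**
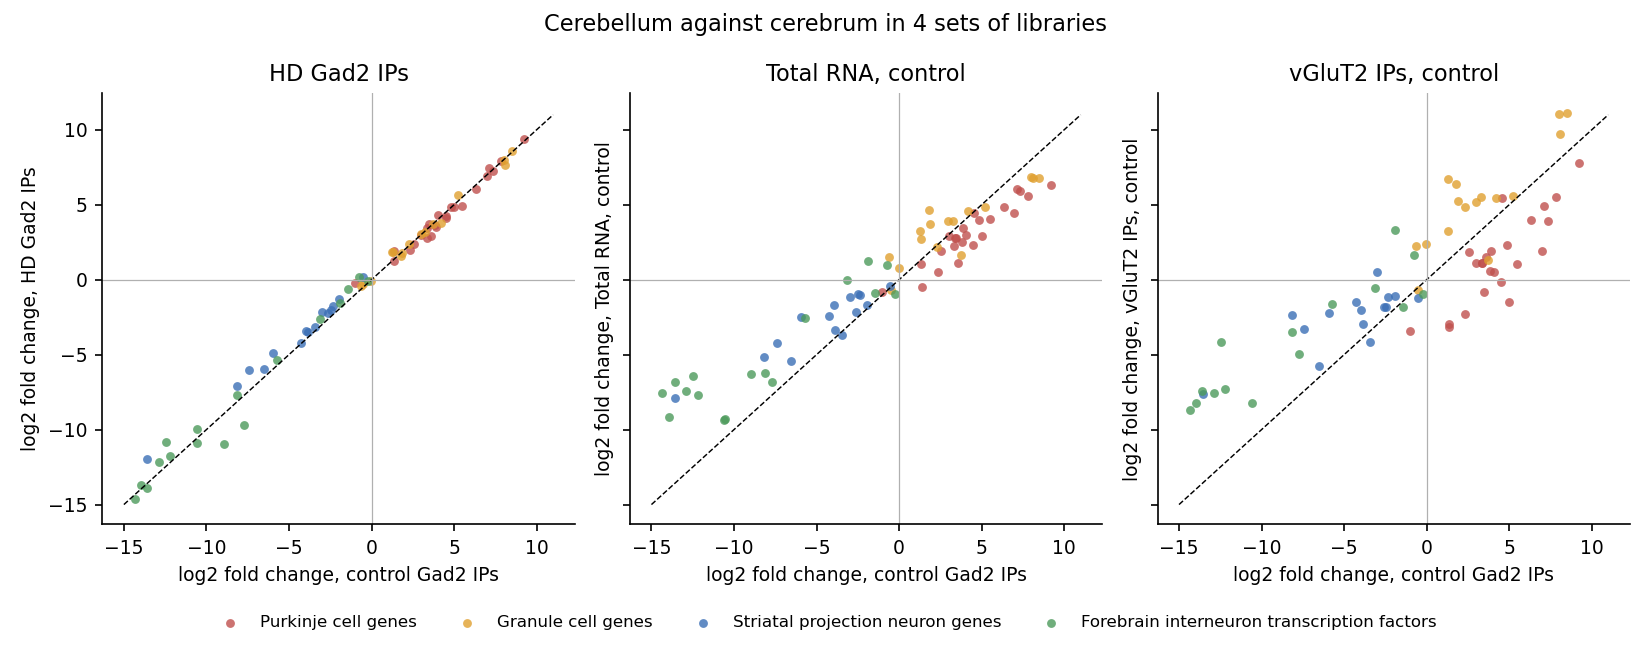
Regional log2 fold changes of genes of the Purkinje, granule, striatal projection and forebrain interneuron lists in control Gad2 IPs (horizontal axis) against HD Gad2 IPs, total RNA and vGluT2 IPs (vertical axes). Points on the diagonal have the same regional difference in both, and in the vGluT2 panel most Purkinje cell genes lie below it and most granule cell genes above it.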

How the data were processed

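The authors aligned paired reads with STAR and quantified them with Salmon on GRCm38.p6, and deposited expected counts per gene, which were rounded. Control Gad2 IPs of 6 mice were grouped by label and paired by mouse code. Protein-coding genes (GENCODE M21) with a mean count over 10 were tested with edgeR 4.0.16 in R 4.3.3 (TMM, quasi-likelihood test, mouse as block, Benjamini-Hochberg, adjusted p of 0.05 or less), and a second call asked for a 4-fold change. Interactions with total RNA and with vGluT2 IPs, and the HD Gad2 IPs, used the same settings. *Ddx3y* and Xist gave the same sex for both tissues of each mouse, a weak check of pairing. Deviations from the tissue means correlated between the tissues of a mouse by −0.02, −0.34, 0.40, 0.66, 0.09 and −0.09 for mice 1 to 6, so pairing was not settled by expression. The methods were tested on simulated data. Libraries held 25849582 to 42528323 counts, and the biological coefficient of variation was 0.238.

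Named genes were the 10 called genes of largest change per direction with separate libraries and at least 10 CPM. Members of 59 lists and 20 pairs, the 3 largest interactions per direction, and *Gad2*, *Rpl22*, Xist, *Ddx3y* and *Ttr* were named as well. Some of these genes are not reported here. Members and lists were chosen with earlier results of these data known. Counts within lists therefore describe that choice in part and are not a test. Alternatives were no replicate block, DESeq2 1.42.0, other scalings, other filters, all gene types, HD mice added, and each mouse left out. Other cell types of the series were not used.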

Additional observations from a re-analysis of the deposited data

Results flagged for a closer look

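Among the genes given with levels of every group, 23 of 174 groups of 6 libraries had a library far from the others by Dixon's test, where chance gives about 1 in 20. Cerebral library 4 lay above the others for *Car8* (105 CPM), *Drd2* (194 CPM), *Fat2* (2.12 CPM), *Homer3* (70.5 CPM), *Pcp2* (75.1 CPM), *Ppp1r17* (32.4 CPM), *Skor2* (1.95 CPM) and *Tfap2b* (10.1 CPM). Most of these are Purkinje cell genes. Cerebral library 1 was above the others for *Adcyap1* (9.50 CPM) and *Neurod6* (11 CPM), and library 2 for *Arntl* (29.0 CPM), while cerebral library 6 lay below them for *Plcb4* (11.3 CPM) and *Syt1* (899.9 CPM), library 5 for *Gdf10* (2.84 CPM) and library 4 for *Nr2f2* (22.5 CPM). In the cerebellum, library 5 lay above the others for *Grm5* (21.2 CPM), *Npy* (10.6 CPM), *Tal1* (1.86 CPM) and *Vip* (0.619 CPM) and library 4 for *Gata2* (1.14 CPM). Cerebellar library 4 lay below them for *Gabra4* (15.8 CPM) and *Nr2f2* (17.6 CPM) and library 3 for *Endou* (2.59 CPM).

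Regional differences that departed most from those of other libraries, by a test of the difference itself, are given on the log2 scale. Against total RNA of control mice they leaned toward the cerebellum for *Adcyap1* (3.67), *Dkkl1* (5.01) and *Neurod6* (5.24) and toward the cerebrum for *Dlx5* (−6.73) and *Lhx6* (−6.05). Against vGluT2 IPs they leaned toward the cerebellum for *Dkkl1* (8.25), *Endou* (8.53) and *Neurod6* (8.28) and toward the cerebrum for *Crabp1* (−7.95), *Isl1* (−8.83) and *Lhx6* (−8.36). Each was called by edgeR, and each but that of *Crabp1* against vGluT2 IPs with DESeq2 as well. Each tests a difference between the regional differences of separate sets of libraries.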

How the results depend on the processing

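Of 7478 genes called by edgeR between the tissues, the count was 7368 with no replicate block, so pairing the tissues of a mouse changed it little, 8033 with DESeq2, 7457 with DESeq2 size factors, 7475 on library sizes alone, 7676 with no filter on low counts, 7393 with the edgeR filter, 7949 with all gene types and 9611 with HD mice added. Leaving out each mouse in turn gave 6137 to 8014. Alternatives chosen after seeing the data left out mice 3 and 4 together (4552 called, 2032 higher and 2520 lower) or mice 1, 2, 4 and 6 together (5491 called, 2791 higher and 2700 lower, so that more were higher in the cerebellum, and by 4-fold 632 higher and 752 lower). Fewer mice were used in both, only mice 3 and 5 in the second, and the cause beyond that was not tested.

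The interaction with total RNA moved most. Against 1228 called by edgeR, of which 594 were toward the cerebellum, DESeq2 called 1959 (942 toward the cerebellum and 1017 toward the cerebrum), and with no replicate block, leaving the pairing of libraries unused, 1687 were called, 910 of them toward the cerebellum. Leaving out each mouse gave 413 to 1377 called, 185 to 656 toward the cerebellum and 228 to 721 toward the cerebrum. The cause was not tested. The interaction with vGluT2 IPs, 6022 called, gave 5828 to 6603 under the other settings and 5415 to 6355 without each Gad2 mouse, no vGluT2 mouse being left out. In HD mice, 7884 called became 6302 without the mouse sequenced again.

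Of 229 genes named in the text, most kept direction and side of the threshold. The number was 223 with no replicate block for paired libraries, 225 with DESeq2 and 227 with DESeq2 size factors. Sign changed for a few, most of them near 0. With HD mice added, log2 fold changes turned to 0.21 for *Gria2*, −0.066 for *Grm4*, −0.072 for *Hcn2*, −0.068 for *Hcn4* and 0.037 for *Phex*. DESeq2, its size factors and all gene types gave 0.019, 0.019 and 0.040 for *Gria2* and 0.0060, 0.0044 and 0.025 for *Th*. Leaving out each mouse gave −0.21 to 0.13 for *Gria2*, −0.025 to 0.18 for *Hcn4* and −0.21 to 0.19 for *Th*. Without mice 3 and 4, *Gria2* was at 0.082, *Hcn4* at −0.021, *Slc32a1* at 0.019 and *Th* at 0.29, and without mice 1, 2, 4 and 6, *Hcn4* at −0.079 and *Slc17a7* at 0.095. Except *Grm4* and *Phex*, none of these was called by edgeR in controls. The cause was not tested.

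Both tissues were sampled whole, so the comparison is between mixtures of inhibitory neurons, and shares of cell types, RNA per cell and RNA from other cells cannot be told apart. Total RNA covered 3 libraries per tissue, with mouse 6 alone giving both. The vGluT2 IPs came from other mice, so cell type and mouse are not separated there. Values of genes with few counts in a tissue depend on the prior count, and floors and counting intervals cover counting error only. Differences of dissection between mice were not measured.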
